A study of Mus musculus with 25 samples.

Results

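The genes described here are 44 mouse genes of the lysosome, out of 36528 gene IDs counted. They were listed by name and by role, and the rule uses no measured value, though earlier results of these data were known when the list was made. Of them 10 encode proteins of the lysosomal membrane, 9 encode proteases, 11 encode glycosidases (the sulfatase Ids is counted with them), 8 act on lipids or encode activator and companion proteins, 5 encode subunits of the proton pump, and Tfeb encodes a transcription factor. The lysosome is the compartment in which cells break down protein, glycan and lipid delivered by endocytosis and autophagy. A vacuolar-type proton pump keeps its lumen acidic, the soluble hydrolases work at that pH, heavily glycosylated membrane proteins line it, and TFEB switches on many of the genes by binding a short palindromic element in their promoters. In the brain, inherited loss of many of these enzymes causes storage disease with neuron loss, and lysosomes are among the routes by which neurons and glia clear aggregated tau.

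RNA was sequenced from cells sorted from brains of mice aged 6 months. Carriers of a human MAPT transgene with the P301S mutation (hMAPT-P301S, called P301S below) were set against non-transgenic littermates (non-Tg), in Gfap+ astrocytes and in NeuN+ neurons. There were 5 P301S astrocyte, 6 non-Tg astrocyte, 6 P301S neuron and 8 non-Tg neuron libraries, 25 in all. The promoter that drives the transgene is not given in the sources used here, and no source ties an astrocyte library to the neuron library of the same animal. Whether each library came from a single mouse or several is not stated, so every p-value measures the spread between these samples, which may be partly technical. A sort of Cd11b+ myeloid cells from the experiment is not analysed here.

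Total counts ran from 1245964 to 4453555 per library, and 3 counts amounted to between 0.674 and 2.41 CPM, counts per 1000000 in the library. P301S astrocyte libraries held the fewest detected genes, 13894 to 18997, and non-Tg astrocyte libraries 17417 to 21050, against 19617 to 20936 in P301S neurons and 18495 to 23389 in non-Tg neurons. Mitochondrial genes took 3.42% to 11.0% of counts in P301S astrocytes and 2.16% to 5.39% in non-Tg astrocytes, and at most 2.32% in any neuron library. Summed levels of 13 astrocyte markers were 14910 to 30305 CPM in P301S astrocytes and 16485 to 26774 CPM in non-Tg astrocytes, against 372 to 796 CPM in neuron libraries. The 13 neuron markers summed to 589 to 1281 CPM in astrocyte libraries, against 2537 to 3511 CPM in neuron libraries, so each sort was led by the markers of its label. Counts at mouse Mapt averaged 90.7 ± 34.2 CPM in P301S and 44.6 ± 10.4 CPM in non-Tg astrocytes, and 51.3 ± 11.7 CPM in P301S and 51.0 ± 24.4 CPM in non-Tg neurons; whether reads of the human transgene were counted there is not given, so this does not check the genotype labels. Gfap, which marks reactive astrocytes, averaged 953 CPM in P301S astrocytes and 202 CPM in non-Tg astrocytes. No pair of libraries of a group agreed within counting noise, so each counted as 1 sample.

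RefSeq promoters on mouse build GRCm38.p6, covering 250 bases before to 50 bases after the start, were found for 38 of the 44 members. Asah1, Atp6v1b2, Atp6v1h, Ctsb, Ctsh and Npc1 had no entry. The 6-letter palindrome CACGTG stood in 13 of these 38 genes (34.2%), against 8.09% of the 27025 genes with a promoter and 7.15% of all 32851 promoters of that length. The longer palindrome TCACGTGA, which always contains the shorter one and is the core of the element that TFEB binds, stood in 7 of the 38 (18.4%), against 1.12% of all genes and 0.974% of all promoters. Those 7 genes were Atp6v0d1, Atp6v1a, Cln3, Ctsa, Ctsd, Gla and Mcoln1. The other 6 with CACGTG alone were Ctsf, Ctsl, Gaa, Glb1, Lamp1 and Naglu. Both motifs read the same on either strand, and a match describes these letters only.

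The 250 bases before the start are shown 5′ to 3′ on the gene's own strand for 6 members that the results below describe or that hold the motif, with CACGTG in capitals. Lamp1 (chr8:13158911-13159160, plus strand) held 4 copies, beginning 61, 45, 28 and 15 bases before the start. Mcoln1 (chr8:3500269-3500518, plus strand), a cation channel of the lysosomal membrane, held 2. Ctsd (chr7:142387828-142388077, minus strand) held 2 and Atp6v1a (chr16:44139260-44139509, minus strand) held 1. In each of Mcoln1, Ctsd and Atp6v1a, 1 copy lay within TCACGTGA. Gpnmb (chr6:49036268-49036517, plus strand) and Cd63 (chr10:128909095-128909344, plus strand) held none in this window.
Lamp1: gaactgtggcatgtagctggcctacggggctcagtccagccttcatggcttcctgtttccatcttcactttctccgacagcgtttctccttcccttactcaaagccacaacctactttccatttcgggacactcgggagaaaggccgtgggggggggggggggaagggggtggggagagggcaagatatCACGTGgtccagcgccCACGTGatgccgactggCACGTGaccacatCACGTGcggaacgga
Mcoln1: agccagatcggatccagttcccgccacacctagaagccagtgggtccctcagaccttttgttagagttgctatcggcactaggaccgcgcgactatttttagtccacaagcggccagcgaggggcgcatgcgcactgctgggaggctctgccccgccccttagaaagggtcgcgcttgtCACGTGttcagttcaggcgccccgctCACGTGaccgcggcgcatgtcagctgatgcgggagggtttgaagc
Ctsd: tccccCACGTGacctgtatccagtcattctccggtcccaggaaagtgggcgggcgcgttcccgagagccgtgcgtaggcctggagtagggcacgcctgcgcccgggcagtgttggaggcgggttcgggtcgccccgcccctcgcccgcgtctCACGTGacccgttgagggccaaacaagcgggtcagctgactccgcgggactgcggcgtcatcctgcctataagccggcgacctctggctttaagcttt
Atp6v1a: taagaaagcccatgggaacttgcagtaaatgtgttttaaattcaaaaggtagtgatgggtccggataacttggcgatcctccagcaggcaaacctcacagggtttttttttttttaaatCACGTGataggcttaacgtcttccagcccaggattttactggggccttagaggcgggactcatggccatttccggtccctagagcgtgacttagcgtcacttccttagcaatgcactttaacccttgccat
Gpnmb: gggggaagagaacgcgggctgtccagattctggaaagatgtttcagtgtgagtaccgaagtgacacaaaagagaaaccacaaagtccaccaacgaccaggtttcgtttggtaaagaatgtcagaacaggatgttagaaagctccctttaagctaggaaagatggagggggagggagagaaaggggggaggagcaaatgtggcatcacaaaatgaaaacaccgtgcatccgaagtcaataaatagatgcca
Cd63: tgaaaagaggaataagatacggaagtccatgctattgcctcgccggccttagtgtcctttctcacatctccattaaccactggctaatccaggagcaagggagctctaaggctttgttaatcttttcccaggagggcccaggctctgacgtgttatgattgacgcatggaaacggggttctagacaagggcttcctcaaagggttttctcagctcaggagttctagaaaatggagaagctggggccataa

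Levels of different genes were compared on the authors' scale of reads per kilobase of gene and per library size, adjusted by their size factors (RPKM). In astrocytes the highest member on this scale was Tpp1, tripeptidyl peptidase 1, with a mean of 10.9 ± 3.74 RPKM in P301S and 12.5 ± 4.81 RPKM in non-Tg (SD, n = 5 and 6). Lamp2, a major glycoprotein of the lysosomal membrane, followed in P301S astrocytes at 9.17 ± 3.73 RPKM and stood at 8.22 ± 1.39 RPKM in non-Tg astrocytes. Its relative Lamp1 averaged 8.43 ± 4.23 RPKM in P301S and 9.90 ± 3.64 RPKM in non-Tg astrocytes. These neighbours in the order differed by less than their spread between libraries.

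Neurons had another gene on top. Atp6v0a1, a membrane subunit of the proton pump, averaged 10.3 ± 1.36 RPKM in P301S neurons and 10.3 ± 1.25 RPKM in non-Tg neurons (SD, n = 6 and 8). Next came Asah1, acid ceramidase, at a mean of 5.44 ± 0.792 RPKM in P301S neurons and 5.58 ± 0.655 RPKM in non-Tg neurons, which was below Atp6v0a1 by more than the spread. Tpp1, at a mean of 3.77 ± 1.24 RPKM in P301S and 4.40 ± 1.08 RPKM in non-Tg neurons, and Ids, iduronate sulfatase, at 3.37 ± 1.07 and 4.12 ± 1.29 RPKM, did not differ beyond their spread. Ctsd, cathepsin D, averaged 4.18 ± 3.71 RPKM in P301S neurons and 2.75 ± 2.04 RPKM in non-Tg neurons, with an SD nearly as large as its mean. At the low end, Tfeb averaged 0.175 RPKM in P301S astrocytes, 0.194 in non-Tg astrocytes, 0.0268 in P301S neurons and 0.0138 in non-Tg neurons.

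**Figure D1:**
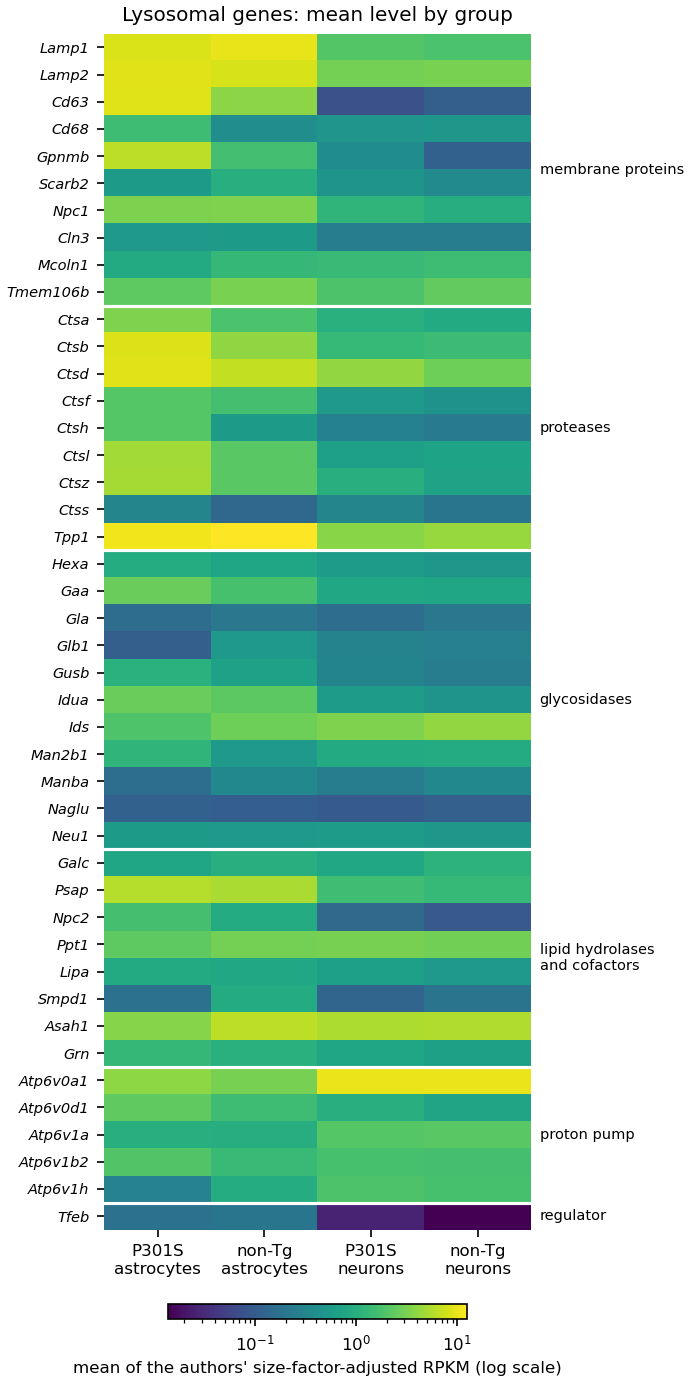
Heat map of the mean level of each of the 44 members (down the page, grouped by role) in the 4 groups (across), as the authors' size-factor-adjusted RPKM on a logarithmic colour scale. Tpp1, Lamp1 and Lamp2 are among the highest members in both astrocyte groups, and Atp6v0a1 is the highest in both neuron groups at 10.3 RPKM.

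All further levels are CPM scaled by the trimmed mean of M-values over the 25 libraries. The summed level of the 44 genes was 2509 ± 324 CPM in P301S astrocytes and 2114 ± 346 CPM in non-Tg astrocytes, against 1248 ± 73.8 CPM in P301S neurons and 1235 ± 105 CPM in non-Tg neurons (SD, n = 5, 6, 6 and 8). The astrocyte sums, 1726 to 2791 CPM, lay above those of all neuron libraries. In sorted bulk samples, fewer cells of a type and less RNA per cell cannot be told apart. Members were noisier between libraries in P301S astrocytes, where the median SD of log2(CPM + 1) over 40 members was 1.04, than in non-Tg astrocytes (0.52), P301S neurons (0.38) or non-Tg neurons (0.43). All genes tested had the same order, with medians of 1.14, 0.65, 0.37 and 0.46.

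Astrocytes and neurons were compared within each genotype in 1 fit of the 25 libraries, which gives each gene the same spread in every group. The spread was larger in P301S astrocytes, as given above, and the SEs and adjusted p-values carry that limit. With libraries of P301S mice alone 4925 genes were called in either direction, against 7420 in the common fit. By edgeR all 7 proteases tested and 7 of 10 membrane proteins were higher in astrocytes of each genotype. The members that edgeR called lower there were 2 of 5 subunits of the proton pump, while 1 subunit was higher. By edgeR's quasi-likelihood test with Benjamini-Hochberg adjustment over every gene tested (threshold 0.05), 20 of 40 members were higher and 2 lower in astrocytes than in neurons of P301S mice. In this comparison 29.0% of all 14197 genes tested were higher and 23.2% lower. In non-Tg mice 21 of 40 were higher and 2 lower, against 25.1% and 21.8% of all genes. DESeq2 called 20 members higher and 4 lower in each genotype. With limma voom 16 were higher and 3 lower in P301S, and 21 and 2 in non-Tg. The shares over all genes under these 2 tools are not given here. The median log2 fold change of the members was 1.08 in P301S and 1.18 in non-Tg, against 0.21 and 0.11 over all genes. Cd63, Gpnmb, Gla, Gusb, Npc2 and Smpd1 were too low to be tested in neurons alone and entered through the astrocytes. For them the filter favoured a higher level in astrocytes, and the counts by role and the largest differences below include them. Glb1 passed in neither cell type alone and entered in the fit of 25 libraries. Of the 33 members that passed in neurons by themselves, 16 were higher and 2 lower in each genotype. The 7 proteases are all among these 33. The share over all genes under that filter was not computed. With relative log expression (RLE) size factors in place of the trimmed mean, the median over all genes moved to 0.08 in P301S and -0.08 in non-Tg. A change of size factors moves all genes of a library alike. The members' distance above that median could therefore hardly change, and was 0.87 and 1.08, against 0.87 and 1.07 before. With RLE 18 members were higher and 3 lower in P301S, against 3780 and 3577 of all 14197 genes. In non-Tg 20 were higher and 4 lower, against 3060 and 3538 genes.

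All 7 proteases tested were higher in astrocytes of both genotypes. Their log2 fold changes were 1.27 to 3.05 in P301S, with a median of 2.07, and 1.19 to 1.97 in non-Tg, with a median of 1.69. They comprised the cathepsins Ctsa, Ctsb, Ctsd, Ctsf, Ctsl and Ctsz and Tpp1. Among membrane proteins 7 of 10 were higher and none lower in either genotype, with medians of 1.69 in P301S and 1.59 in non-Tg. Cd63, Cln3, Gpnmb, Lamp1, Lamp2 and Npc1 passed in both genotypes, Cd68 in P301S and Scarb2 in non-Tg. Glycosidases moved less. Gaa, acid alpha-glucosidase, Gusb, beta-glucuronidase, and Idua, alpha-iduronidase, were higher in both genotypes, and the other 7 of 10 did not pass in either. Gusb had 5.91, 0.945, 4.11, 7.55 and 73.3 CPM in the P301S astrocyte libraries, so its mean there was set largely by library 5. The glycosidase medians were 0.38 in P301S and 0.53 in non-Tg.

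Of the 8 members with a role in lipid breakdown, Npc2 and Psap were higher in astrocytes of both genotypes and Smpd1 in non-Tg. Their median log2 fold changes were 0.64 in P301S and 0.80 in non-Tg. The 5 proton pump subunits had medians of -0.94 in P301S and -0.70 in non-Tg. Atp6v0d1 alone among them was higher by edgeR. Its log2 fold change was 1.41 (SE 0.54, adjusted p = 0.0278) in P301S and 1.17 (SE 0.48, adjusted p = 0.0456) in non-Tg. It had 11.3, 48.8, 43.7, 0.755 and 16.1 CPM in the P301S astrocyte libraries. Atp6v0a1 was lower in both genotypes, Atp6v1h in P301S and Atp6v1a in non-Tg.

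**Figure D2:**
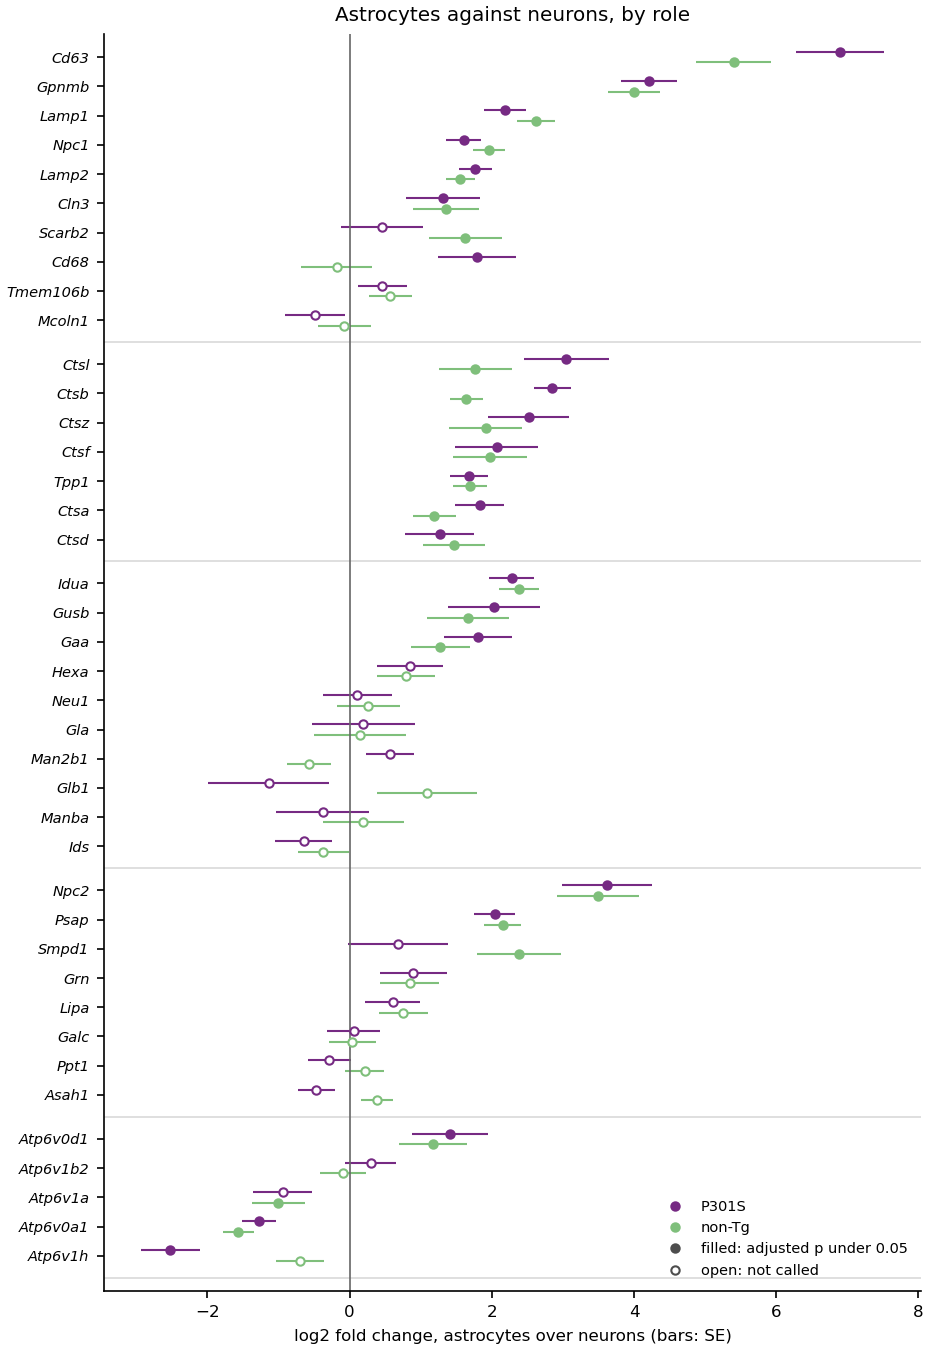
Log2 fold change of astrocytes over neurons for the 40 members tested, grouped by role down the page, in P301S and in non-Tg mice. Points are edgeR estimates and bars are 1 SE. The 7 proteases all lie right of 0, and Atp6v0a1, at -1.27 in P301S and -1.56 in non-Tg, lies left of it.

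The largest of these differences was in Cd63, a tetraspanin of late endosomes and lysosomes. It had 32.1, 34.3, 84.4, 18.1 and 172 CPM in the P301S astrocyte libraries, and at most 0.867 CPM in any P301S neuron library. In non-Tg mice it had a lowest, median and highest level of 22.1, 25.4 and 41.9 CPM in astrocytes, and at most 1.42 CPM in neurons. The 6 P301S neuron libraries held 7 counts of it in total and the 8 non-Tg ones 12. Every astrocyte library was far above every neuron library, and the fitted log2 fold changes of 6.90 (SE 0.62, adjusted p = 5.37e-11) in P301S and 5.40 (SE 0.52, adjusted p = 1.99e-10) in non-Tg rest on those few neuron counts. Gpnmb, a transmembrane glycoprotein known from lysosomes of phagocytic cells and from melanosomes, was the second largest. It had a lowest, median and highest level of 4.33, 7.75 and 13.5 CPM in P301S neurons and of 1.42, 1.74 and 4.80 CPM in non-Tg neurons, all below the astrocyte levels given further on. The log2 fold change was 4.21 (SE 0.39, adjusted p = 1.36e-10) in P301S and 4.0 (SE 0.37, adjusted p = 6.31e-11) in non-Tg.

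Npc2, the soluble protein that hands cholesterol to Npc1, had 10.4, 5.98, 11.2, 103 and 37.4 CPM in P301S astrocytes, against 0.968, 2.32 and 4.51 CPM (lowest, median, highest) in P301S neurons. In non-Tg mice its lowest, median and highest levels were 8.36, 19.4 and 23.5 CPM in astrocytes, against 0.190, 1.42 and 3.18 CPM in neurons. The groups did not overlap, and the log2 fold changes were 3.62 (SE 0.64, adjusted p = 1.49e-05) in P301S and 3.49 (SE 0.58, adjusted p = 5.67e-06) in non-Tg. With the number of detected genes as a covariate the P301S value was 1.79 and no longer passed (adjusted p = 0.0835).

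Lamp1 had 141, 208, 53.8, 92.1 and 97.2 CPM in P301S astrocytes, against 23.0, 26.1 and 30.6 CPM (lowest, median, highest) in P301S neurons. In non-Tg mice it had 90.8, 134 and 231 CPM in astrocytes, against 15.0, 23.1 and 28.1 CPM in neurons. No neuron library reached the lowest astrocyte library in either genotype. The log2 fold change was 2.19 (SE 0.30, adjusted p = 2.12e-07) in P301S and 2.62 (SE 0.26, adjusted p = 4.76e-10) in non-Tg.

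Smpd1, acid sphingomyelinase, was called in non-Tg mice. There it had 3.68, 12.2 and 31.0 CPM (lowest, median, highest) in astrocytes, against 0, 2.52 and 4.99 CPM in neurons, a log2 fold change of 2.38 (SE 0.59, adjusted p = 0.0010). In P301S mice it had 1.13, 0.315, 5.23, 0.755 and 6.36 CPM in astrocytes, against 0.955, 1.40 and 3.47 CPM in neurons, which overlapped, with a value of 0.68 (SE 0.70, adjusted p = 0.428). Whether its cell type difference itself differed between genotypes is the difference of genotype effects tested further on, in which it was not called.

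Lower in astrocytes was Atp6v0a1, the large membrane subunit through which the pump carries protons. It had 112, 148, 157, 92.9 and 104 CPM in P301S astrocytes, against 239, 303 and 343 CPM (lowest, median, highest) in P301S neurons. In non-Tg mice it had 59.1, 79.7 and 185 CPM in astrocytes, against 205, 297 and 325 CPM in neurons. All astrocyte libraries lay below all neuron libraries, with log2 fold changes of -1.27 (SE 0.24, adjusted p = 4.12e-05) in P301S and -1.56 (SE 0.22, adjusted p = 3.01e-07) in non-Tg.

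Atp6v1a, the ATP-hydrolysing subunit, had 28.2, 20.8, 47.4, 34.7 and 1.5 CPM in P301S astrocytes, against 35.8, 49.0 and 69.7 CPM (lowest, median, highest) in P301S neurons. In non-Tg mice it had 14.0, 26.7 and 35.8 CPM in astrocytes, against 41.1, 51.6 and 62.5 CPM in neurons. The non-Tg groups were apart and the P301S groups overlapped. The log2 fold change was -1.0 (SE 0.37, adjusted p = 0.0250) in non-Tg, where the call was lost without non-Tg astrocyte library 1 (adjusted p = 0.0515), and -0.94 (SE 0.41, adjusted p = 0.0534) in P301S, where 10 of 21 alternatives called it, DESeq2 (0.0180) and limma voom (0.0218) among them.

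Members outside the extremes are given by their levels alone. Among proteases, Tpp1 had 148, 341, 293, 265 and 176 CPM in P301S astrocytes, against 60.5, 68.5 and 124 CPM (lowest, median, highest) in P301S neurons. In non-Tg mice Tpp1 had 147, 274 and 445 CPM in astrocytes, against 58.1, 87.8 and 117 CPM in neurons, so no neuron library reached an astrocyte library of its genotype. Ctsl, cathepsin L, was uneven: it had 19.7, 17.6, 8.22, 240.1 and 64.3 CPM in P301S astrocytes, against 5.81, 7.31 and 13.0 CPM in P301S neurons, and 14.0, 27.8 and 57.4 CPM in non-Tg astrocytes, against 3.43, 8.43 and 16.4 CPM in non-Tg neurons. Its lowest astrocyte libraries lay within the neuron range. Ctsa, which both cleaves peptides and protects the sialidase Neu1 in a complex, had 69.5, 51.0, 66.9, 51.3 and 141 CPM in P301S astrocytes, against 16.9, 20.1 and 27.6 CPM in P301S neurons. In non-Tg mice Ctsa had 20.6, 39.4 and 57.7 CPM in astrocytes, against 9.5, 17.9 and 31.4 CPM in neurons, with overlap at the edges.

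Of the other membrane proteins, Lamp2 and Npc1 were high in every astrocyte library. Lamp2 had 213, 406, 244, 155 and 429 CPM in P301S astrocytes, against 73.1, 83.5 and 101 CPM (lowest, median, highest) in P301S neurons, and 205, 242 and 312 CPM in non-Tg astrocytes, against 57.3, 93.5 and 102 CPM in non-Tg neurons. Npc1 had 115, 162, 62.0, 109 and 82.3 CPM in P301S astrocytes and 101, 107 and 124 CPM in non-Tg astrocytes, which was above its neuron levels, given further on, in every library. Psap had 75.2, 114, 123, 92.9 and 85.6 CPM in P301S astrocytes, against 19.9, 24.1 and 27.6 CPM in P301S neurons, and 51.1, 90.7 and 138 CPM in non-Tg astrocytes, against 12.8, 17.6 and 31.7 CPM in non-Tg neurons. All 4 ranges of Psap were apart between cell types and overlapped between genotypes.

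Idua had the largest fold change between cell types among the glycosidases called. It had 79.4, 75.9, 104, 85.3 and 51.2 CPM in P301S astrocytes, against 7.80, 16.8 and 22 CPM (lowest, median, highest) in P301S neurons, and 56.2, 64.0 and 81.4 CPM in non-Tg astrocytes, against 5.87, 10.6 and 20.8 CPM in non-Tg neurons. Neither genotype had an overlap between cell types. Ppt1, which removes fatty acids from proteins, overlapped between all 4 groups, with 33.5, 31.5, 14.6, 84.6 and 26.2 CPM in P301S astrocytes, 35.7, 49.3 and 60.7 CPM in non-Tg astrocytes, 39.6, 45.0 and 52.1 CPM in P301S neurons and 37.0, 42.8 and 50.8 CPM in non-Tg neurons. Ids, the sulfatase, had 57.6, 90.3 and 145 CPM in P301S neurons and 50.1, 124 and 149 CPM in non-Tg neurons, and its astrocyte levels, 8.31 to 133 CPM in P301S and 71.7 to 133 CPM in non-Tg, overlapped these. Hexa, Neu1, Manba and Gla reached at most 24.2 CPM in any of the 25 libraries, and none of them was called between cell types.

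Markers of other cells also differed between the sorts. The 9 oligodendrocyte markers summed to 388, 646 and 1302 CPM (lowest, median, highest) in P301S astrocytes and 202, 345 and 532 CPM in non-Tg astrocytes, against 68.7, 74.5 and 83.5 CPM in P301S neurons and 41.7, 62.9 and 87.5 CPM in non-Tg neurons. The sums of 5 markers of oligodendrocyte precursors and of 8 of endothelial and mural cells were likewise higher in the astrocyte libraries, at 221 to 695 CPM and 39.3 to 150 CPM, against 55.5 to 135 CPM and 4.36 to 14.9 CPM in neuron libraries. Pdgfrb made up most of the endothelial and mural sum, with means of 69.6 CPM in P301S and 80.9 CPM in non-Tg astrocytes. Of that list 3 genes were tested. In P301S edgeR called 2 higher in astrocytes and Acta2 lower (-2.11, adjusted p = 0.0139), and in non-Tg 2 higher. Cldn5 was at 0 in every P301S astrocyte library. The part of these other cells in the cell type differences was not tested. The sums of 16 microglia markers overlapped between the sorts and are given with the genotype comparison.

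Within astrocytes, P301S mice were compared with non-Tg mice to see which lysosomal genes differ with the tau transgene. Gpnmb was the member that rose, 1 of 40 tested, and none fell. Over all 12130 genes tested, 0.519% were higher and 0.0247% lower. The members' median log2 fold change was 0.15, with 24 above 0 and 16 below, against 0.13 over all genes, and 9 of 40 members had an unadjusted p under 0.05, against 1629 of 12130 genes. By role the medians were -0.05 for membrane proteins, 0.87 for proteases, 0.24 for glycosidases, -0.13 for lipid breakdown and 0.32 for the proton pump. Naglu, Ctsh, Ctss and Glb1 were too low to be tested.

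Gpnmb had 178, 154, 198, 129 and 99.9 CPM in the P301S astrocyte libraries, against 19.7, 30.5 and 67.0 CPM (lowest, median, highest) in the 6 non-Tg libraries. The groups did not overlap, and the means were 152 ± 38.7 CPM in P301S and 39.0 ± 22.1 CPM in non-Tg (SD, n = 5 and 6). The log2 fold change was 1.95 (SE 0.39, adjusted p = 0.0200 by edgeR's quasi-likelihood test). The call was lost without non-Tg library 1, 2, 3 or 6 (adjusted p = 0.0655, 0.0722, 0.0723 and 0.0774) and without P301S libraries 3 and 4, which held the fewest genes (1.87, adjusted p = 0.0567). It was also lost with a covariate for detected genes (1.57, adjusted p = 0.692) or for the mean log2 CPM of the microglia markers (1.99, SE 0.57, adjusted p = 0.613). The log2 fold change was 1.57 to 1.99 across these settings.

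The member with the next smallest p was Ctsb, cathepsin B, a cysteine protease. It had 150, 178, 249, 402 and 300.7 CPM in P301S astrocytes, against 85.0, 111 and 182 CPM (lowest, median, highest) in non-Tg. The groups overlapped by the highest non-Tg library, and the log2 fold change of 1.10 (SE 0.30) had an adjusted p of 0.0956. Smpd1, with the astrocyte levels given above, had a log2 fold change of -2.31 (SE 0.87, adjusted p = 0.240), and its groups overlapped.

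Cd68, a glycoprotein of phagocyte lysosomes and a usual microglia marker, had 10.1, 12, 48.6, 3.02 and 8.98 CPM in P301S astrocytes, against 2.54, 4.24 and 6.69 CPM (lowest, median, highest) in non-Tg. P301S library 3 was far above the rest and library 4 lay within the non-Tg range. The log2 fold change was 1.92 (SE 0.75, adjusted p = 0.260), and 0.99 without library 3. P301S library 3 also had the highest microglia marker sum of the group, 253 CPM.

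The other members set out for this comparison did not pass. Lamp1 had a log2 fold change of -0.24 (SE 0.35, adjusted p = 0.804). Ctsd, an aspartic protease, had 0.44 (SE 0.42, adjusted p = 0.679), and Psap, the precursor of the saposins that present lipids to their hydrolases, had 0.12 (SE 0.33, adjusted p = 0.908). Grn, progranulin, had 0.29 (SE 0.63, adjusted p = 0.885), and Tfeb had -0.11 (SE 0.93, adjusted p = 0.975). With these SEs, differences of this size could not be told from 0.

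Apart from Gpnmb, 2 members had groups that did not overlap, and they are named because their values were seen. Over all genes 2.14% had groups that did not overlap. Man2b1, lysosomal alpha-mannosidase, had 26.5, 69.3, 19.8, 22.7 and 42.6 CPM in P301S astrocytes, against 13.9, 16.8 and 19.1 CPM (lowest, median, highest) in non-Tg. Its lowest P301S library lay barely above the highest non-Tg one, and the log2 fold change was 1.09 (SE 0.50, adjusted p = 0.341). Atp6v1h, the regulatory H subunit of the pump, had 7.60, 2.20, 9.71, 0.755 and 4.86 CPM in P301S astrocytes, against 13.8, 15.5 and 21.7 CPM in non-Tg. Its P301S libraries all lay lower, with a log2 fold change of -1.70 (SE 0.71, adjusted p = 0.298).

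The number of members called in astrocytes depended on the fit. DESeq2, which called 4.11% of genes in either direction, and an edgeR fit with no filter on low counts each called Gpnmb and Ctsb, and limma voom called Gpnmb. A single fit of all 25 libraries, which gives each gene the same spread in astrocytes and neurons, called 11.8% of genes and 7 members: Gpnmb, Cd68, Ctsb and Man2b1 higher, and Asah1, Atp6v1h and Smpd1 lower.

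**Figure D3:**
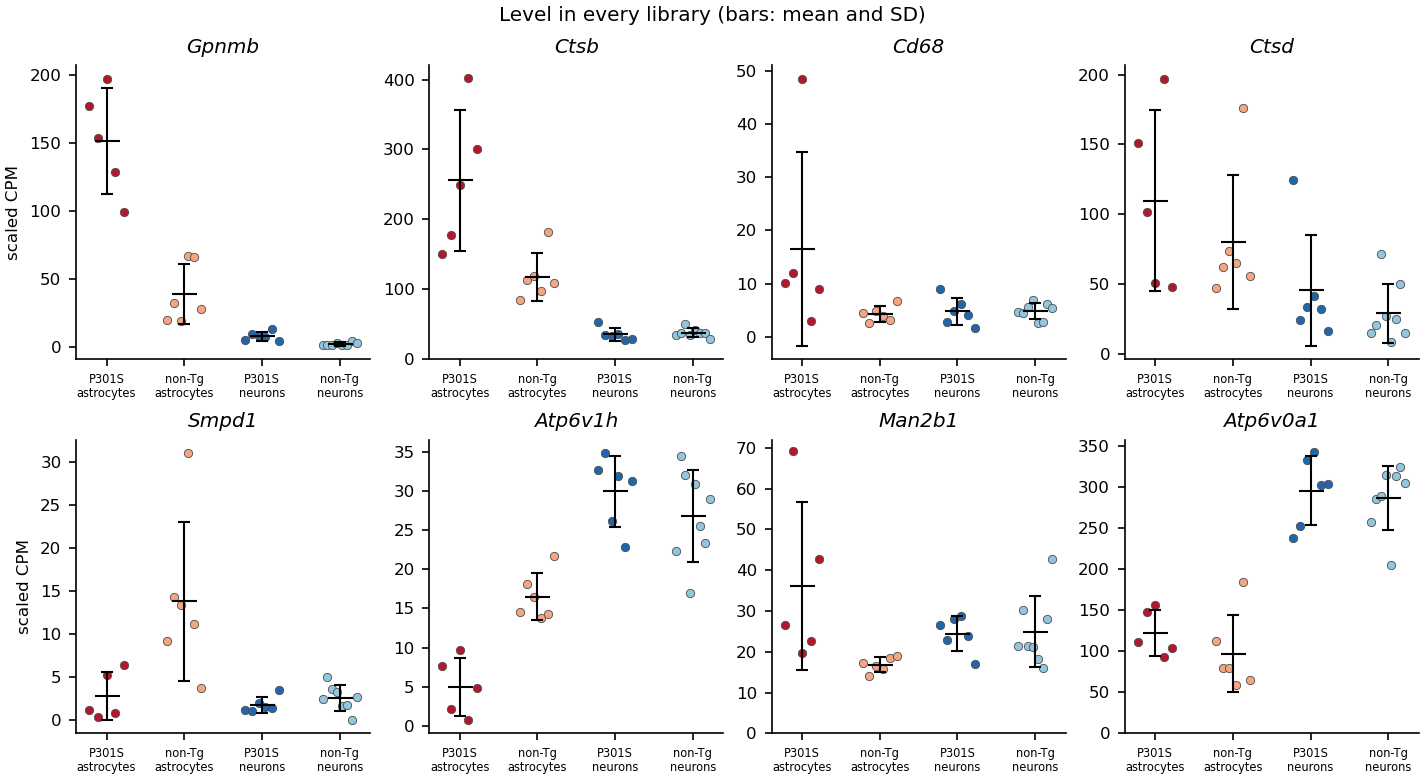
Level in CPM of 8 members in every library of the 4 groups, with P301S left of non-Tg in each cell type. Each point is 1 library, and the bar and whiskers are the mean and SD. The 5 P301S astrocyte points of Gpnmb, 99.9 to 198 CPM, lie above the 6 non-Tg points, 19.7 to 67.0 CPM, and those of Atp6v1h lie below theirs.

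Within neurons no member passed. Of the 33 members tested 0 were called by edgeR, by DESeq2 or by limma voom, and 1 had an unadjusted p under 0.05, against 846 of all genes. Over all 10951 genes tested 0.00913% were called. The members' median log2 fold change was 0.08, against -0.02 over all genes. The 11 members too low to be tested were Cd63, Ctsh, Ctss, Gla, Glb1, Gpnmb, Gusb, Naglu, Npc2, Smpd1 and Tfeb.

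Galc, which removes galactose from galactosylceramide of myelin, had the smallest p. It had 17.8, 20.4 and 29.6 CPM (lowest, median, highest) in P301S neurons, against 21.8, 29.2 and 41.2 CPM in non-Tg neurons, with wide overlap and a log2 fold change of -0.40 (SE 0.19, adjusted p = 0.638). Npc1, the membrane protein that exports cholesterol from lysosomes, had 30.5, 34.1 and 40.7 CPM in P301S neurons, against 19.7, 30.6 and 33.5 CPM in non-Tg neurons. Its ranges overlapped and the log2 fold change was 0.30 (SE 0.16, adjusted p = 0.687).

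Tmem106b, a lysosomal membrane protein whose variants are linked to frontotemporal dementia in people, had 39.2, 67.9 and 78.4 CPM (lowest, median, highest) in P301S neurons, against 43.0, 90.8 and 104 CPM in non-Tg neurons. The groups overlapped over most of their range, with a log2 fold change of -0.35 (SE 0.20, adjusted p = 0.720). Ctsd had 16.9, 33.1 and 125 CPM in P301S neurons, against 9.07, 22.9 and 71.8 CPM in non-Tg neurons. A single library set the top of the P301S range, and the log2 fold change was 0.67 (SE 0.44, adjusted p = 0.762), 0.057 without that library (P301S 1) and up to 0.998 without non-Tg library 3.

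The remaining members followed in both cell types did not pass in neurons either. Lamp1 had a log2 fold change of 0.19 (SE 0.17, adjusted p = 0.835) and Ctsb one of -0.10 (SE 0.18, adjusted p = 0.929). Psap had 0.24 (SE 0.20, adjusted p = 0.827), Grn 0.25 (SE 0.29, adjusted p = 0.870) and Cd68 -0.04 (SE 0.33, adjusted p = 0.985). Each of these 5 SEs was smaller than that of the same gene in astrocytes, while that of Ctsd was slightly larger, 0.44 against 0.42.

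Gpnmb was below the filter on low counts in neurons. Its levels there were 4.33, 7.75 and 13.5 CPM (lowest, median, highest) in P301S, against 1.42, 1.74 and 4.80 CPM in non-Tg, with a small overlap between 4.33 and 4.80 CPM. With no filter, a setting under which 0.0591% of all genes were called, its log2 fold change was 1.73 (SE 0.36, adjusted p = 0.0116), and with a filter at 1 CPM it was 1.74 (adjusted p = 0.0382). It was not called in 1 fit of all 25 libraries (1.75, adjusted p = 0.255). When a library was left out it passed the filter in 7 of the fits, with adjusted p = 0.0436 without P301S neuron library 6 and 0.0820 to 0.144 in the others. Whether Gpnmb was called in neurons thus depended on the filter, on the libraries in the fit and on the fit itself.

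**Figure D4:**
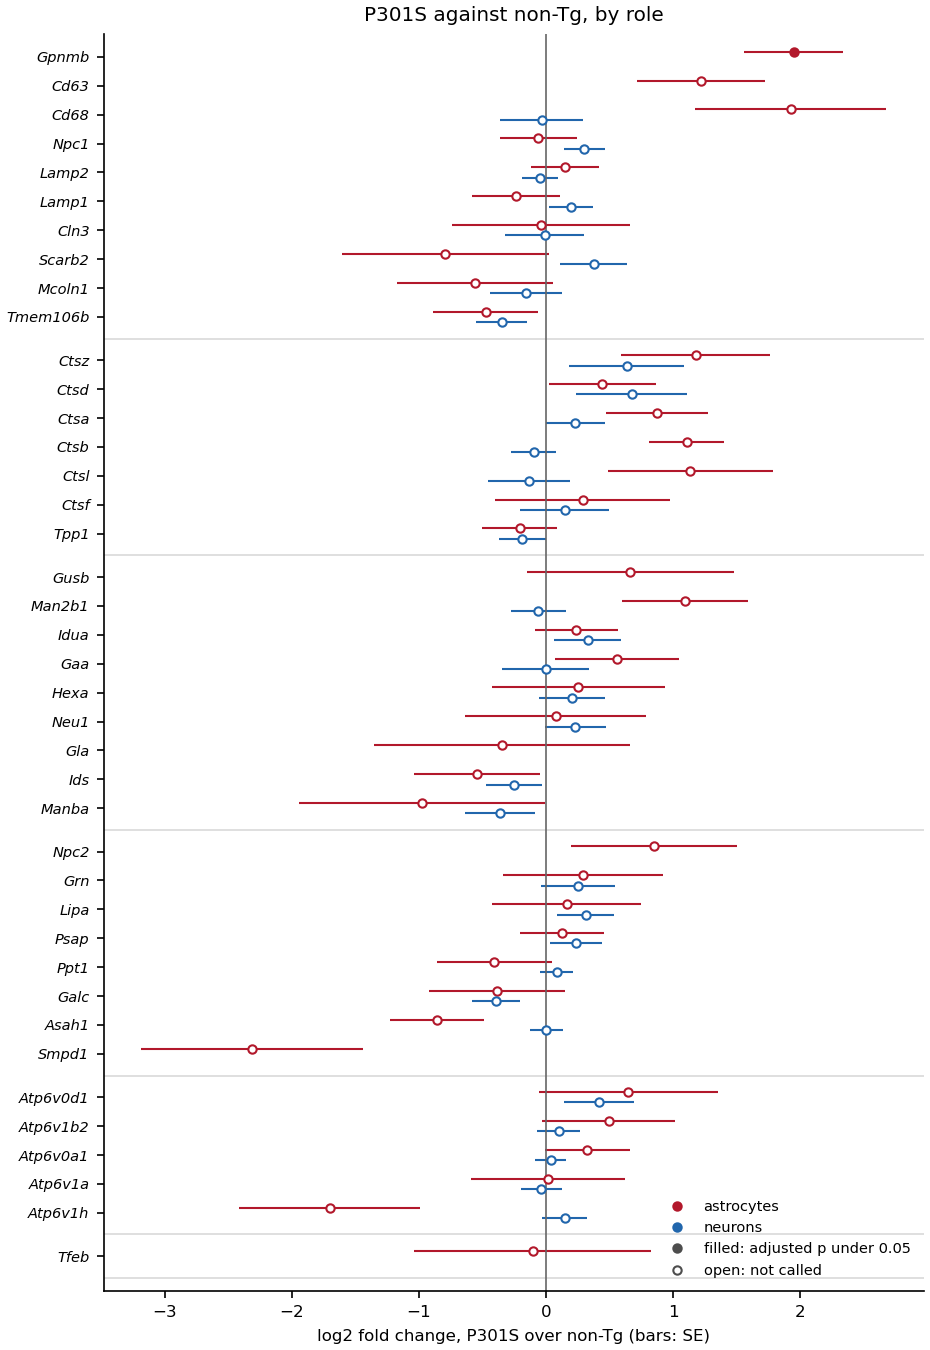
Log2 fold change of P301S over non-Tg for the members tested, grouped by role down the page, in astrocytes and in neurons. Points are edgeR estimates and bars are 1 SE. Gpnmb in astrocytes, at 1.95, is the member called. The bars of Lamp1, Ctsb, Psap, Grn and Cd68 are wider in astrocytes than in neurons, and that of Ctsd is slightly narrower.

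Microglia carry high levels of several lysosomal genes, so their markers were summed beside these results. The 16 microglia and myeloid markers, none of which is among the 44 genes, summed to 123, 86.3, 253, 213 and 129 CPM in P301S astrocyte libraries 1 to 5, against 42.1, 80.3 and 133 CPM (lowest, median, highest) in non-Tg astrocytes. In neurons they summed to 72.8, 124 and 464 CPM in P301S, against 17.7, 98.8 and 210 CPM in non-Tg. The ranges overlapped in both cell types, and no marker of the list was at 0 in all libraries of a group. Tmem119 was at 0 in 2 non-Tg neuron libraries and C1qa in 2 non-Tg astrocyte libraries.

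In neurons the highest levels of Ctsd and of Ctsz, cathepsin Z, stood in the libraries with the most microglia marker. Ctsd had 125 CPM in P301S neuron library 1, 71.8 CPM in non-Tg library 3 and 50.0 CPM in non-Tg library 7. Ctsz had 20.9, 11.4 and 11.0 CPM in the same libraries, whose marker sums were 464, 210 and 201 CPM. With the mean log2 CPM of the markers, not their sum, as a covariate in edgeR, the Ctsd log2 fold change in neurons was -0.022 (adjusted p = 0.983). It was 0.67 without the covariate.

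Among P301S astrocytes, library 3 had both the highest marker sum, 253 CPM, and the highest Gpnmb, 198 CPM, and library 2 had the lowest sum, 86.3 CPM, with 154 CPM of Gpnmb. Beyond the fit with the mean log2 CPM of the markers as a covariate given above, the part of microglia in the Gpnmb values was not tested. The oligodendrocyte marker sums given above overlapped between P301S and non-Tg astrocytes, and none of the 7 markers tested was called by edgeR, while DESeq2 called Mbp and Mobp. The 5 oligodendrocyte precursor markers summed to 293 to 695 CPM in P301S astrocytes and 221 to 419 CPM in non-Tg astrocytes. The median log2 fold change of the 4 tested was 1.35, and edgeR called 0 of them. DESeq2, which called 4.11% of all genes, and limma voom, which called 119 of 12130, each called Olig2 higher. The part of oligodendrocytes and their precursors in the Gpnmb result was not tested.

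**Figure D5:**
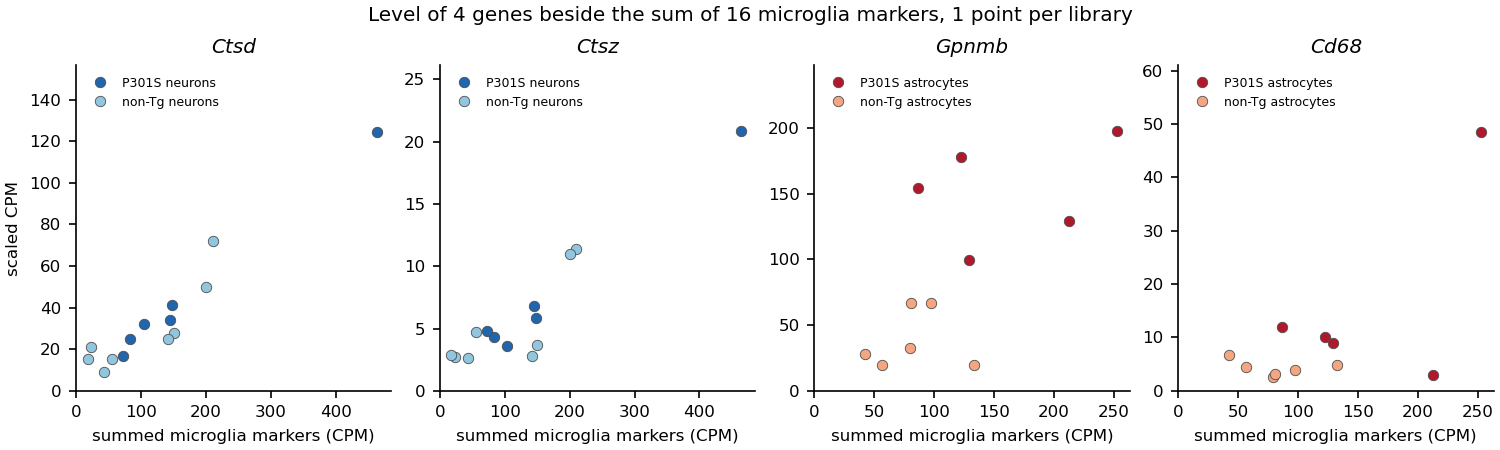
Levels in CPM of Ctsd and Ctsz in neuron libraries and of Gpnmb and Cd68 in astrocyte libraries (vertical axes), against the summed CPM of 16 microglia markers (horizontal axes), with 1 point per library. P301S neuron library 1, at a sum of 464 CPM, has the highest Ctsd (125 CPM). All P301S astrocyte points of Gpnmb lie above the non-Tg points. The sums run from 86.3 to 253 CPM in P301S astrocytes and from 42.1 to 133 CPM in non-Tg astrocytes, which overlap in part.

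Whether the genotype effect differed between cell types was tested as the P301S against non-Tg effect in astrocytes minus that in neurons. The common fit used for it gives each gene the same spread in both cell types, and its SEs carry that limit. None of the 40 members tested was called, against 0.394% of all 14197 genes, and 5 had an unadjusted p under 0.05, against 2106 of all genes. The members' median difference was 0.03, against 0.09 over all genes. Under limma voom 0 were called. DESeq2, which called 3.05% of all genes, called Atp6v1h (adjusted p = 0.00886) and Ctsb (adjusted p = 0.0276).

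Atp6v1h had the smallest p, with a difference of -1.82 on the log2 scale (SE 0.51, adjusted p = 0.0773). It was lower in P301S astrocytes, as given above, and had 22.9, 31.6 and 34.9 CPM (lowest, median, highest) in P301S neurons, against 17.0, 27.2 and 34.4 CPM in non-Tg neurons. The neuron groups overlapped almost wholly. Set against neurons and chosen after its values were seen, Atp6v1h was called lower in astrocytes of P301S mice (log2 fold change -2.52, SE 0.41, adjusted p = 4.58e-06) and not of non-Tg mice (-0.70, SE 0.34, adjusted p = 0.0889). In non-Tg it was called with DESeq2 (0.00222), with RLE size factors (0.0278) and with libraries of that genotype alone (0.0164). The difference was called without P301S astrocyte library 1 (adjusted p = 0.0303), without library 3 (0.0323) and without libraries 3 and 4 (0.0257).

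Ctsb came second, with a difference of 1.21 (SE 0.34, adjusted p = 0.0816). In neurons it had 26.9, 33.6 and 53.6 CPM (lowest, median, highest) in P301S, against 28.6, 37.2 and 50.5 CPM in non-Tg, which did not separate. The difference was called without P301S astrocyte library 1 (adjusted p = 0.0261), P301S astrocyte library 2 (0.0412) or non-Tg astrocyte library 5 (0.0448).

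Cd68 had a difference of 1.97 (SE 0.74, adjusted p = 0.188), and of 1.04 without P301S astrocyte library 3. Its neuron levels of 1.73, 4.44 and 9.02 CPM (lowest, median, highest) in P301S and 2.67, 5.04 and 6.90 CPM in non-Tg overlapped. Asah1, acid ceramidase, had a difference of -0.86 (SE 0.34, adjusted p = 0.214). It had 47.3, 32.4, 25.8, 77.8 and 67.7 CPM in P301S astrocytes, against 71.0, 89.7 and 115 CPM in non-Tg astrocytes, and 54.2, 70.6 and 80.6 CPM in P301S neurons, against 55.8, 69.6 and 75.4 CPM in non-Tg neurons. P301S astrocyte libraries 1 to 3 lay below all the others. For Gpnmb, taken up because it was called in astrocytes, the difference was 0.21 (SE 0.58, adjusted p = 0.915), so its astrocyte and neuron fold changes were not told apart.

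A few members stood near the floor. Naglu, alpha-N-acetylglucosaminidase, reached at most 4.79 CPM in any of the 25 libraries and was 0 in at least 1 library of each group. Ctss, cathepsin S, a protease that microglia express strongly, was at 0 to 7.33 CPM. Ctsh, cathepsin H, had 97.9 CPM in P301S astrocyte library 3 and 0.282 to 3.78 CPM in the other P301S astrocyte libraries. Tfeb had 9.29, 3.46, 0.374, 0 and 7.48 CPM in P301S astrocytes and a median of 3.34 CPM in non-Tg astrocytes, and at most 1.69 CPM in neurons, so its level in neurons was at or under the limit that the depth allows.

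Other genes of the lysosome, on a list of 36 further enzymes and membrane proteins, behaved much as the members did between cell types. By edgeR 18 of 33 tested were higher and 2 lower in astrocytes than in neurons of P301S mice, against 29.0% and 23.2% of all genes. In non-Tg mice 18 of 33 were higher and 2 lower, against 25.1% and 21.8%. The medians were 0.87 and 0.88. In neurons alone 27 of the list passed the filter on low counts, so some of the 33 entered through the astrocytes or the common fit. For genes that entered through the astrocytes the filter favoured a higher level there. A count without them was not made. Ctso, cathepsin O, had log2 fold changes of 3.53 in P301S and 3.54 in non-Tg, and Gm2a, the activator protein for GM2 ganglioside breakdown, had 2.92 and 3.65. Laptm4a, a membrane protein of late endosomes and lysosomes, had 2.22 and 2.11. Of 11 further proton pump genes edgeR called 4 higher in P301S and 3 in non-Tg, near the 29.0% and 25.1% of all genes, and 0 lower in either, while DESeq2 and limma voom each called 1 lower in non-Tg. Among them were Tcirg1, another form of the large membrane subunit, at 3.93 in P301S and 2.70 in non-Tg, Atp6v0e at 2.72 and 2.01, and Atp6ap1, an accessory protein, at 1.06 and 0.78. Atp6v0a1 and Tcirg1, which fill the same place in the pump, thus differed between cell types in opposite directions.

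Between genotypes, none of these further genes was called by edgeR. In astrocytes edgeR called 66 of all 12130 genes, and 1629 had an unadjusted p under 0.05. DESeq2 called 4.11% of all genes there and limma voom 119. Of 32 further lysosomal genes 0 passed in astrocytes, with 3 at an unadjusted p under 0.05, and DESeq2 called Lgmn, the protease legumain. Of 11 further pump genes 0 passed, with 1 at an unadjusted p under 0.05, and DESeq2 and limma voom called Tcirg1. In neurons 0 of 27 and 0 of 10 passed under any of the 3 tools. There 2 and 0 had an unadjusted p under 0.05, against 846 of 10951 genes.

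Some members share sequence with neighbours. By the RefSeq annotation 17 of the 44 overlap another gene, 11 of them a protein-coding one: Npc1 shares 8982 bases with Rmc1, Asah1 8464 with Frg1, Idua 8503 with Slc26a1, Glb1 10107 with Tmppe and Ctsb 774 with Fdft1. Whether the authors' counting used strand is not given in the sources used here, so reads from the shared stretches cannot be assigned with certainty.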

How the data were processed

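Per the file headers, the deposited count of a gene is the number of reads uniquely aligned to its model, and a second deposited column holds the authors' size-factor-adjusted RPKM. The RPKM values equalled the counts times 1 factor per library and 1 per gene, to within a relative 4.17e-14. GSNAP and GRCm38 are named in the submitters' processing notes. Not given in the sources used here are the aligner's version and role, the strand setting and the gene model version. All 44 genes were found by Entrez ID through the RefSeq table of GRCm38.p6, in which 5479 of the 36528 IDs had no match. Those IDs held 3.30% of counts and stayed in every test, and 5729 IDs were at 0 in every library.

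edgeR 4.0.16 (limma 3.58.1, R 4.3.3) compared genotypes within each cell type on the deposited counts by its quasi-likelihood F test, after TMM scaling and filterByExpr, in a robust fit. A common fit of the 25 libraries gave the cell type comparisons (astrocytes over neurons) and the difference of the genotype effects (astrocytes minus neurons). Calls were made at 0.05 after Benjamini-Hochberg adjustment across the genes of a comparison. The SE is the size of the log2 fold change over the square root of F. The fits of the genotype comparisons and of their difference were run on simulated data, and the outcome is not given here. The simulation gave each gene the same spread in all libraries, unlike these data. The cell type comparisons were not simulated. Floors of 3 counts cover counting error only.

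The members and lists were chosen with earlier results of these data known. All 44 may be named with levels. Fold changes are given for members called, for the 4 with the smallest p in each genotype comparison and in the difference, for Gpnmb, Cd68, Lamp1, Ctsb, Ctsd, Psap, Grn and Tfeb in both genotype comparisons, for the 5 called with the largest change per direction between cell types in non-Tg, and for up to 3 called of each other list. Genes outside this rule are said to be so. Other settings were DESeq2 1.42.0, limma voom, RLE size factors, no filter, a filter at 1 CPM, all 25 libraries or 1 genotype in a fit, covariates for microglia markers or detected genes, fits without Malat1 and mitochondrial genes, without 2 non-Tg neuron libraries of another sample identifier range and without each library. A fit without the 2 P301S astrocyte libraries with the fewest genes was chosen after seeing the data.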

Additional observations from a re-analysis of the deposited data

Results flagged for a closer look

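A library was singled out where the gap to its nearest neighbour took more of its group's range than Dixon's 95% critical value allows. Of 160 combinations of a member and a group, 16 were singled out, all at the high end. The critical value lets through about 1 in 20 where levels are normally distributed. The levels used were CPM on a plain scale, for which this was not checked, so the count of 16 is not set against it.

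P301S neuron library 1, which held the highest microglia marker sum, was singled out for 4 proteases. It had 125 CPM of Ctsd against a group median of 33.1 CPM, and 20.9 CPM of Ctsz against 5.29 CPM. Its Tpp1 level was 124 CPM against a median of 68.5 CPM, and its Ctsb level was 53.6 CPM against 33.6 CPM. Non-Tg neuron library 8 had 31.4 CPM of Ctsa against a median of 17.9 CPM and 12.9 CPM of Ctsf against 4.54 CPM.

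Among P301S astrocytes, library 3 had 48.6 CPM of Cd68 against a median of 10.1 CPM. Library 4 had 240.1 CPM of Ctsl against 19.7 CPM and 84.6 CPM of Ppt1, palmitoyl-protein thioesterase, against 31.5 CPM. Library 5 had 141 CPM of Ctsa against 66.9 CPM and 73.3 CPM of Gusb against 5.91 CPM. Library 1 had 25.1 CPM of Mcoln1 against 9.35 CPM.

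Among non-Tg astrocytes, library 5 had 231 CPM of Lamp1 against a median of 134 CPM, 182 CPM of Ctsb against 111 CPM and 176 CPM of Ctsd against 64.0 CPM. Library 6 had 133 CPM of Ids against 84.1 CPM.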

How the results depend on the processing

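Of 980 alternative values for 41 fold changes of named members, 923 kept direction and side of the threshold, 28 newly passed it, 9 no longer passed and 20 changed sign; where no value is set beside a change, the cause was not tested. In P301S against non-Tg astrocytes, members called (1) and all genes called (66) were 2 and 440 with DESeq2, 2 and 561 with no filter, 7 and 1682 in 1 fit of all 25 libraries, 0 and 4 with the microglia covariate, 0 and 6 with the covariate for detected genes, 0 and 42 without the 2 P301S astrocyte libraries with the fewest genes, 0 to 1 and 27 to 136 when each library was left out; all genes called were 119 with limma voom. Signs changed there for Tfeb (0.30 with limma voom, 0.22 with the microglia covariate, 0.12 with detected genes, 0.57 without those 2 libraries, -0.64 to 0.24 when each library was left out), Lamp1 (0.17 with the microglia covariate, 0.086 without the 2 libraries), Psap (-0.27 with detected genes) and Grn (-0.32 to 0.54 when each library was left out). In neurons, members called (0) were 1 with no filter or a filter at 1 CPM, and 0 to 1 when each library was left out; all genes called (1) were 49 with DESeq2, 41 with limma voom, 17 with no filter, 10 at 1 CPM, 38 without the 2 neuron libraries whose sample identifiers fall apart, 0 with the microglia covariate, 20 with detected genes, and 0 to 23 when each library was left out. Ctsd was -0.022 there with the microglia covariate, and Cd68 -0.29 to 0.14 when each library was left out. For the difference between cell types, members called (0) were 2 with DESeq2, 1 without the 2 astrocyte libraries, and 0 to 2 when each library was left out; all genes called (56) were 425 with DESeq2, 10 with limma voom, 12 without the 2 neuron libraries, 34 with the microglia covariate, 19 with detected genes, 266 without the 2 astrocyte libraries, and 9 to 522 when each library was left out. For astrocytes against neurons in P301S, all genes called (7420) were 4925 with that genotype alone, and the members' median (1.08) was 0.725 with limma voom, 1.35 with that genotype alone and 0.83 to 1.30 when each library was left out; Smpd1 was -0.035 with limma voom. No paired analysis was possible because the labels give no replicate numbers; they were assigned in accession order. Depth limits Tfeb, Naglu and, in neurons, Cd63 and Gpnmb, which had few counts.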

Other observations

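Genes that sort proteins to lysosomes, regulate mTORC1 and the TFEB family, or run autophagy were counted on lists of their own. Between cell types, edgeR called 4 of 21 sorting genes higher in astrocytes than in neurons of P301S mice, below the 29.0% of all genes called higher there, and 0 lower, with a median log2 fold change of 0.57, and limma voom called 1 higher. These included Rab7, the small GTPase of late endosomes, at 1.57, Ap3d1, a subunit of the AP-3 adaptor, at 1.45 and Gga2, an adaptor for the mannose phosphate receptors, at 1.33. In non-Tg mice edgeR called 0 of 21 in either direction, DESeq2 called 3 lower, and limma voom called 3 higher and 3 lower. Of 17 genes of mTORC1 and TFEB family regulation, edgeR called 3 higher and 2 lower in astrocytes than in neurons of P301S mice, and 1 higher in non-Tg, fewer in each direction than the share over all genes. Flcn, folliculin, which acts on the Rag GTPases, was higher in both genotypes, at 1.55 in P301S and 2.05 in non-Tg. Zkscan3 was higher at 1.93 and Fnip1, a partner of folliculin, lower at -1.19 in P301S.

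Of 25 autophagy genes tested, edgeR called 8 higher and 6 lower in astrocytes than in neurons of P301S mice, close to the 29.0% and 23.2% of all genes, and limma voom called 1 higher and 3 lower. In non-Tg mice edgeR called 3 higher and 2 lower, below the 25.1% and 21.8% of all genes. Rb1cc1, a scaffold of the initiation complex, was lower in both, at -0.91 in P301S and -1.06 in non-Tg. Gabarap, which is conjugated to the autophagosome membrane, was higher at 3.63 and Becn1 at 1.70 in P301S. In non-Tg mice Ulk2, an initiating kinase, was lower at -0.95 and Wipi1 higher at 1.95. Between genotypes 0 genes of these 3 lists were called by edgeR in either cell type. Over all genes edgeR called 66 of 12130 in astrocytes and 1 of 10951 in neurons. In astrocytes 3 of 21 sorting, 1 of 17 regulatory and 1 of 25 autophagy genes had an unadjusted p under 0.05, against 1629 of 12130 genes. DESeq2, which called 4.11% of all genes there, called Rab7. In neurons 0 genes of the 3 lists had an unadjusted p under 0.05, against 846 of 10951 genes. DESeq2 and limma voom called 0 of the 3 lists there, against 49 and 41 of all genes.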
